A study of Mus musculus with 15 samples.

Results

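Casein (CAS), the main protein of milk, was compared with yellow mealworm (YMW), an insect protein source, for its effect on gene expression in mouse small intestinal epithelium. The comparison used the 6 arrays that the labels place in these groups, 3 with CAS and 3 with YMW, of the 15 arrays in the series. Cells came from the duodenum of female C57BL/6J mice aged 9 weeks and were grown from organoids into confluent 2D monolayers. All monolayers received a solution for 6 h, which held 4% w/v of the protein source or, for the medium control (MC), was DMEM alone. The methods of the study describe the soluble, undigested part of each source and also give a diluted concentration by mass, so the final concentration is not settled in the sources used here. The other groups received soybean meal (SBM) or spray-dried plasma protein (SDPP). RNA of 3 pooled wells made 1 sample. The labels call the replicates biological, and the study made organoids from 3 individual mice, but the labels do not tie a sample to a mouse. The p-values thus measure the spread between such samples, which may be between mice or technical. The monolayers held epithelium alone by design, without the immune and connective tissue cells of the gut wall, and proteins reached them without gastric or pancreatic digestion.

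The epithelium of the duodenum renews itself from stem cells at the base of the crypts, whose daughters become absorptive enterocytes or secretory cells. These cells sense dietary molecules through receptors, transporters and stress pathways, and pass signals to immune cells beneath them by secreted factors. Among the signals that hold the epithelium in balance are transforming growth factor beta (TGF-beta), which acts through SMAD proteins and induces its own inhibitors, and the factors that keep B cells alive in the mucosa.

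Intensities of 18820 named genes were read on Affymetrix mouse gene 1.1 ST arrays and are given on the log2 scale, where a difference of 1 is a doubling. The study's threshold asks for an unadjusted p under 0.05, here from limma, together with a fold change of 1.5 or more, a log2 difference of 0.58. Benjamini-Hochberg adjusted p-values over all genes stand beside the values. The label of the tissue held: markers of the epithelium such as Epcam, an adhesion molecule, with a mean of 10.50 over all arrays, and Krt8, a keratin, with 12.49, were far above the background of 3.91 set by genes of smell receptors. Of the markers of immune, endothelial and mesenchymal cells, 6 of 19, 6 of 12 and 10 of 16 were above that background, and Ptprc and Pecam1, which define leukocytes and endothelium, were below it at 3.60 and 3.82. Those above it included Cd68 of the immune list at 6.12, Lyve1 of the endothelial list at 5.39 and Fn1 of the mesenchymal list at 7.27. Values in bulk RNA cannot tell fewer cells of a type from less RNA per cell.

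Between CAS and YMW, 53 genes passed the study's threshold, which is 0.282% of all genes tested. Of these, 35 (0.186%) were higher with CAS and 18 (0.0956%) were higher with YMW. At an adjusted p under 0.05, 29 genes (0.154%) differed, 17 of them higher with CAS and 12 higher with YMW, and 21 of the 29 were also past the threshold. The number of genes at this adjusted p was 7 in a fit of the 6 arrays alone or of all 15, and 3 to 32 when any 1 array was left out, lowest without CAS replicate 2. An unadjusted p under 0.05 alone was reached by 1463 genes (7.77%). The median absolute difference over all genes was 0.08 and the median signed difference was -0.02. CAS and YMW arrays did not overlap for 49 of the 53 genes, against 12.9% of all genes. The threshold itself selects for such separation on the same arrays, so this count is a description only. Higher with CAS were genes of B cell survival (Tnfsf13b), of the feedback on TGF-beta (Pmepa1, Skil), of the cytoskeleton (Rhob) and of crypt cells (Sox9). Higher with YMW were genes of fibrinolysis (Plat), of prostaglandin synthesis (Ptgs2) and of the response to cytokines and stress (Tnfaip2, Depp1, Cbr3).

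**Figure D1:**
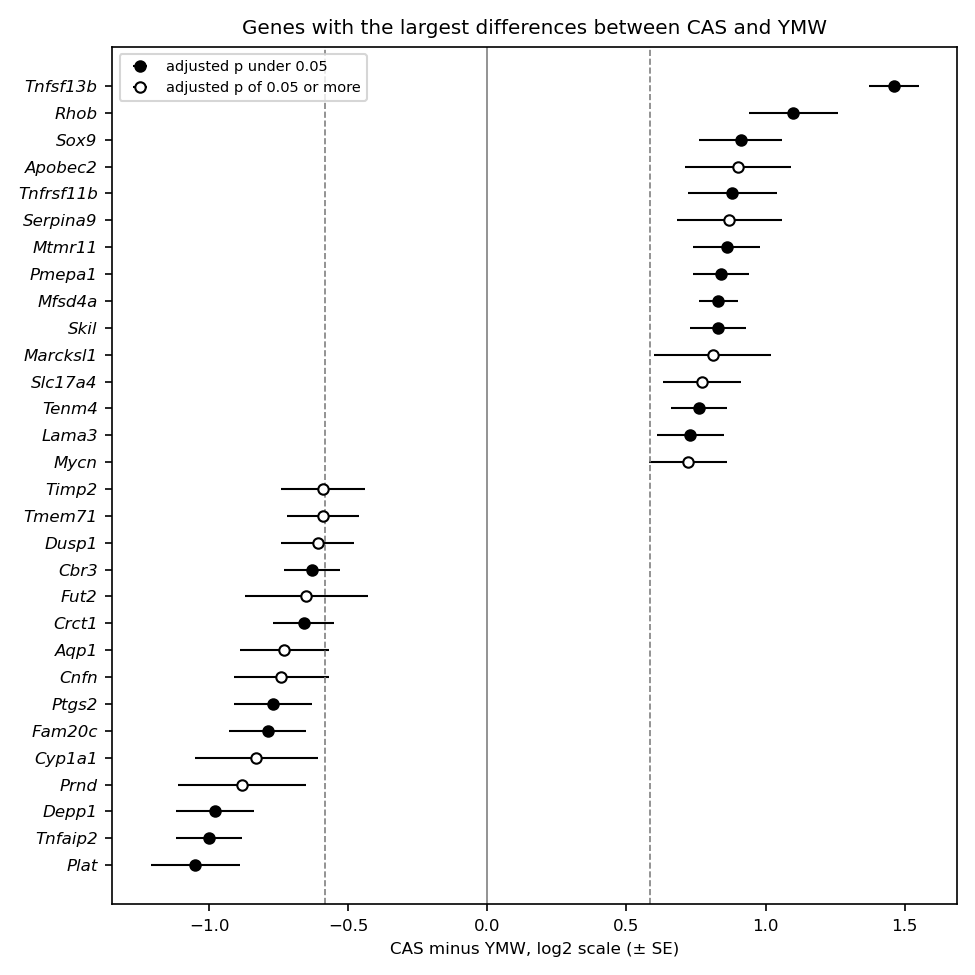
Differences of CAS minus YMW on the log2 scale with their SE from limma (horizontal axis) for the 15 genes with the largest values in each direction among those without overlap and above background (vertical axis). Dashed lines mark the fold threshold of 1.5, filled points have an adjusted p under 0.05, and Tnfsf13b stands apart at 1.46.

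Sequences of 3 promoters are shown to give the context of genes described below. Each comes from RefSeq on build GRCm38.p6, and letters are written 5′ to 3′. The first is a stretch of 30 bases before a start site of Tnfsf13b, the gene with the largest difference, at chr8:10006494-10006523 on the plus strand. Capitals mark the only match in that promoter to TGANTCA, the site of the AP-1 factors, which starts 127 bases before the start site. Of the 2 start sites listed for this gene, 1 had the match in the 250 bases before it.
Tnfsf13b: gcttgtctggagTGAGTCAgtctgaacccc
The next is the region of 250 bases before the start of Dusp1, a phosphatase gene higher with YMW, at chr17:26508473-26508722 on the minus strand. Capitals mark matches to TGACGT, the core of the cyclic AMP response element, on either strand, which start 191, 143 and 141 bases before the start site, the last 2 overlapping.
Dusp1: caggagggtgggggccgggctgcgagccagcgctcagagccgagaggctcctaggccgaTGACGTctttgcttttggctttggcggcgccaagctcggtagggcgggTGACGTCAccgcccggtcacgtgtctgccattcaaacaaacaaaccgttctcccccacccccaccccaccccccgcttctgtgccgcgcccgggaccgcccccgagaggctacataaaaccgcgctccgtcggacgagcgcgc
The third is the same region of Cyp1a1, at chr9:57697363-57697612 on the plus strand, with a match to GCGTG, the core of the xenobiotic response element, in capitals, 54 bases before the start.
Cyp1a1: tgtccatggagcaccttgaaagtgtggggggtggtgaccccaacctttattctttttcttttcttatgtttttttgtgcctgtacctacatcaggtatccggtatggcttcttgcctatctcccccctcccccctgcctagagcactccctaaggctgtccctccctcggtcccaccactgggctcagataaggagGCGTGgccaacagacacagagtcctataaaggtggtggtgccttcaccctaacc
Promoters of this length were in the table for 35 of the 53 genes, 21 higher with CAS and 14 higher with YMW. TGANTCA was present in 4 of the 21 (Tnfsf13b, Ghr, Glrx, Sema4c) and 0 of the 14, against 7.82% of all genes with a promoter in the table. TGACGT occurred in Dusp1 alone of the 35, against 7.29% of all genes, and GCGTG in 6 of the 21 and 4 of the 14, against 30.9%. GTCTG, a SMAD box so short that 45.8% of all genes hold it, lay in 14 of the 21 and 9 of the 14. Each search covered both strands and counted a gene if any of its listed start sites had a match. A match is a description of the letters and does not show that a factor was bound.

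Tnfsf13b encodes BAFF, a cytokine that B cells need to survive. Its log2 intensity was 7.24, 7.35 and 7.30 on the CAS arrays and 5.99, 5.74 and 5.76 on the YMW arrays. All CAS arrays stood above all others of the series, since SBM and SDPP arrays lay between 5.93 and 6.37 and MC arrays between 5.92 and 6.44. The difference between CAS and YMW was 1.46 ± 0.09 (SE), a fold of 2.76, with an adjusted p of 4.62e-06 (limma) and a 95% interval of 1.27 to 1.65. This value belongs to the brighter of 2 probe sets with this symbol. The dimmer one, with a mean of 4.69, differed by 0.21 and had an unadjusted p of 0.0773 in limma, so the difference was seen on 1 of 2 probe sets. The receptors of BAFF, on B cells, had differences of 0.06 (Tnfrsf13b), -0.06 (Tnfrsf13c) and -0.08 (Tnfrsf17), none past the threshold. Of the 14 measured members of a list of B cell and immunoglobulin A cues, Tnfsf13b passed the threshold, and 2 others had an unadjusted p under 0.05 with the higher values on YMW arrays (4.67% of all genes): Ccl20, a chemokine that draws lymphocytes, at -0.44, and Pigr, which carries immunoglobulin A across the epithelium, at -0.15.

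**Figure D2:**
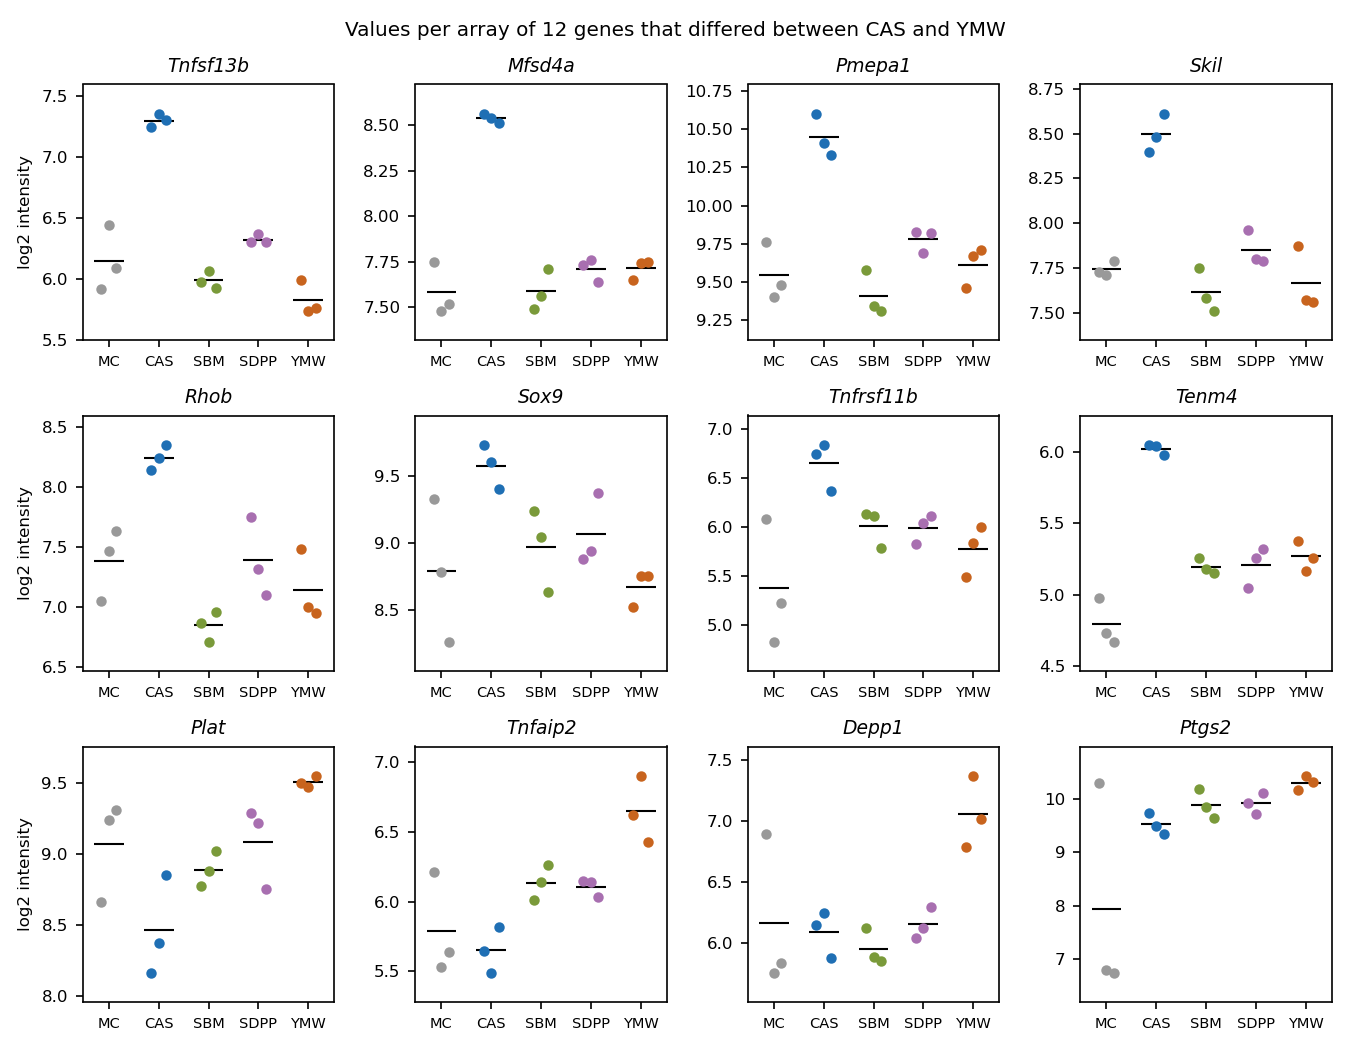
Log2 intensity (vertical axes) on each of 3 arrays per group (points; horizontal axes: MC, CAS, SBM, SDPP, YMW) of 12 genes, with group means as lines. CAS arrays of Tnfsf13b lie at 7.24 to 7.35 and those of YMW at 5.74 to 5.99, whereas in Depp1 it is YMW that stands apart from the other protein sources.

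Pmepa1 and Skil, a pair of genes that TGF-beta induces and that restrain its signal, were higher with CAS. Pmepa1, a membrane protein that keeps SMADs from the receptor, was at 10.60, 10.41 and 10.33 with CAS and at 9.46, 9.67 and 9.71 with YMW. Skil, which encodes the SMAD corepressor SnoN, had 8.40, 8.48 and 8.61 with CAS against 7.87, 7.57 and 7.56 with YMW. In neither gene did the groups overlap. The difference was 0.84 ± 0.10 (adjusted p = 0.00365, limma) for Pmepa1 and 0.83 ± 0.10 (adjusted p = 0.00585) for Skil. Of the 27 measured members of the list of TGF-beta feedback and targets, these 2 passed the threshold, and 7 had an unadjusted p under 0.05 with CAS higher (background 3.11%) and 0 with YMW higher (4.67%). The other 5, named after their values were seen, were the inhibitory Smad7 (0.44 ± 0.19) and Smad6 (0.32 ± 0.12), the receptor Tgfbr1 (0.38 ± 0.13), the decoy receptor Bambi (0.34 ± 0.12) and the integrin subunit Itgav (0.29 ± 0.08). Their fold changes were under 1.5. Smad7 values overlapped between groups, at 6.52, 6.68 and 7.07 with CAS and 6.65, 6.08 and 6.22 with YMW. The remaining members, among them the ligand Tgfb1 (-0.04) and the target Tgfbi (0.23), did not pass, and the median over the list was 0.04. Ldlrad4, another membrane inhibitor of SMAD signalling that was not on the list and was named after its values were seen, was higher with CAS by 0.70 ± 0.12 (adjusted p = 0.0349).

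Other genes higher with CAS encode proteins of the cytoskeleton, the cell surface and the basement membrane. Rhob, an endosomal GTPase, was at 8.14, 8.24 and 8.35 with CAS and at 7.48, 7.0 and 6.95 with YMW, a difference of 1.1 ± 0.16 (adjusted p = 0.019). The groups did not overlap. Mfsd4a, a membrane transporter of the major facilitator family, had a smaller SE than the other genes of this paragraph. Its values of 8.56, 8.54 and 8.51 with CAS and 7.65, 7.74 and 7.75 with YMW gave a difference of 0.83 ± 0.07 (adjusted p = 0.00035). Tenm4, a teneurin of the cell surface, differed by 0.76 ± 0.10 (adjusted p = 0.00706), from 5.98 to 6.05 with CAS and from 5.17 to 5.38 with YMW. Lama3, a chain of the laminin beneath epithelia, differed by 0.73 ± 0.12 (adjusted p = 0.0349). Mtmr11, of the myotubularin family, differed by 0.86 ± 0.12 (adjusted p = 0.00914).

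Sox9, a transcription factor of crypt and Paneth cells, was at 9.73, 9.60 and 9.40 with CAS and at 8.52, 8.75 and 8.75 with YMW, without overlap. The difference was 0.91 ± 0.15 (adjusted p = 0.0417). Sox9 was the only 1 of 20 crypt base stem cell markers past the threshold (0.186% of all genes with CAS higher). Lgr5 and Olfm4, which mark the stem cells themselves, had differences of -0.05 (95% interval -0.30 to 0.21) and -0.02 (-0.40 to 0.35). Markers of the list with an unadjusted p under 0.05 were named after their values were seen. They were Sox9 and Rnf43 (0.17 ± 0.07) with CAS higher (3.11% of all genes) and Aqp4 (-0.54 ± 0.16) and Smoc2 (-0.36 ± 0.11) with YMW higher (4.67%). Two-sided limma tests put the soluble decoy receptor osteoprotegerin, encoded by Tnfrsf11b, at 0.88 ± 0.16 (adjusted p = 0.0482), with 6.75, 6.84 and 6.37 against 5.49, 5.84 and 6.00. A further 5 of the 15 genes that the naming rule, which asks for no overlap, takes in this direction were past the threshold but had adjusted p-values between 0.0532 and 0.212. These were Apobec2, of the cytidine deaminase family (0.90), the protease inhibitor Serpina9 (0.87), the actin regulator Marcksl1 (0.81), the anion transporter Slc17a4 (0.77) and the transcription factor Mycn (0.72). None of these 15 genes, which were chosen among those without overlap, lost the threshold when any 1 of the 12 protein arrays was left out.

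MicroRNA genes were on the array as well. The miR-200 family, known for keeping epithelial cells epithelial by repressing Zeb1 and Zeb2, is made from a cluster on chromosome 4 and another on chromosome 6. Its members fall into groups by their seed, bases 2 to 8 of the mature strand, shown in capitals.
mmu-miR-200b-3p: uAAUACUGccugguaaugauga
mmu-miR-200c-3p: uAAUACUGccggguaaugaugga
mmu-miR-200a-3p: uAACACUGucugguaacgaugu
mmu-miR-141-3p: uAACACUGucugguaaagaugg
Mir200b and Mir200c share 1 seed, and Mir200a and Mir141 share the other. Mir200b, named after its values were seen, was at 5.71, 5.78 and 5.94 with CAS and at 5.11, 5.24 and 5.10 with YMW, and differed by 0.66 ± 0.13 (adjusted p = 0.0665). Mir200a, its neighbour on chromosome 4, was at 5.82, 6.27 and 6.39 against 5.75, 5.77 and 5.50, a difference of 0.49 ± 0.17 that was under the fold threshold. For the chromosome 6 genes the differences were 0.07 ± 0.17 (Mir200c) and 0.07 ± 0.12 (Mir141). Of the members shown, Mir200b and Mir200a thus had larger differences than Mir200c and Mir141, whichever seed they carry. Other members of the family are not described here, and the contrast between clusters was not tested. Mir141 had means of 4.11 with CAS and 4.04 with YMW, near the background of 3.91, where a difference would be hard to see. The array does not measure mature miRNA apart from its precursor.

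Among the 18 genes higher with YMW, Plat had the largest difference. It encodes tissue plasminogen activator, the protease that starts the breakdown of fibrin. Its values were 8.16, 8.37 and 8.85 with CAS and 9.50, 9.47 and 9.55 with YMW, a difference of -1.05 ± 0.16 (adjusted p = 0.0211). Tnfaip2, a gene induced by tumour necrosis factor, was at 5.65, 5.49 and 5.82 with CAS and at 6.62, 6.90 and 6.43 with YMW (-1.0 ± 0.12, adjusted p = 0.00585). Ptgs2, which encodes the inducible cyclooxygenase of prostaglandin synthesis, was at 9.74, 9.49 and 9.34 against 10.16, 10.43 and 10.31 (-0.77 ± 0.14, adjusted p = 0.0482). CAS and YMW did not overlap in any of these genes. The MC arrays for Ptgs2 ran from 6.74 to 10.29, so its level against medium was poorly determined. Ptger4, a prostaglandin E2 receptor named after its values were seen, had a difference of 0.48 ± 0.09, opposite in sign to that of Ptgs2 and under the fold threshold.

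Depp1, a gene induced by fasting and by FOXO factors, was at 6.14, 6.24 and 5.87 with CAS and at 6.79, 7.37 and 7.02 with YMW. The difference was -0.98 ± 0.14 (adjusted p = 0.019). Of the 29 glucocorticoid and FOXO responsive genes measured, Depp1 was the only one past the threshold, and 4 had an unadjusted p under 0.05 with YMW higher (4.67% of all genes) and 1 with CAS higher (3.11%). Dusp1, a phosphatase that switches off MAP kinases, was at 9.23, 9.15 and 9.39 with CAS and at 9.87, 9.88 and 9.84 with YMW. It differed by -0.61 ± 0.13 (adjusted p = 0.106), and by -0.56 when CAS replicate 2 was left out, which is under the threshold. Of 30 immediate early genes, whose transcripts respond within minutes to hours, Dusp1 passed the threshold with YMW higher and Rhob with CAS higher. Beyond these, 7 had an unadjusted p under 0.05, all with YMW higher (4.67% of all genes), among them Ier3 (-0.53 ± 0.10), Nr4a1 (-0.46 ± 0.12) and Gadd45b (-0.34 ± 0.07), while Fos had a difference of 0.13. Hilpda, a lipid droplet protein induced by hypoxia, had 7.04, 7.04 and 7.21 with CAS and 7.63, 7.59 and 7.61 with YMW. It differed by -0.51 ± 0.09 (adjusted p = 0.053), whereas Ddit4, another gene induced by hypoxia and stress, differed by 0.08 ± 0.10. The stress gene Adm, which encodes adrenomedullin, differed by -0.58 ± 0.20, just under the fold threshold.

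Fam20c, a kinase of the secretory pathway, was also higher with YMW, by -0.79 ± 0.14 as CAS minus YMW (adjusted p = 0.0482). The corresponding values were -0.66 ± 0.11 (adjusted p = 0.0349) for Crct1, a gene of the epidermal differentiation complex, and -0.63 ± 0.10 (adjusted p = 0.0349) for Cbr3, a carbonyl reductase. Further genes past the threshold had adjusted p-values above 0.1: Prnd (-0.88), Cnfn (-0.74), the water channel Aqp1 (-0.73), the fucosyltransferase Fut2 (-0.65), Tmem71 (-0.59) and the metalloproteinase inhibitor Timp2 (-0.59). Of the genes named here with YMW higher, some lost the threshold on leaving out 1 array. They were Cnfn, Crct1, Fut2 and Timp2 without YMW replicate 2, Tmem71 without YMW replicate 1, Timp2 without YMW replicate 3, Dusp1, Timp2 and Tmem71 without CAS replicate 2, and Aqp1, Crct1, Fut2 and Timp2 without CAS replicate 3. Among the genes not above background, Ceacam9 lost it without YMW replicate 2, Lce3b without CAS replicate 2 or YMW replicate 2, and Olfr172 without CAS replicate 1, YMW replicate 2 or YMW replicate 3. Cyp1a1, the detoxifying enzyme that the aryl hydrocarbon receptor induces, differed by -0.83 ± 0.22 (adjusted p = 0.25), from 3.69, 4.07 and 4.00 with CAS to 4.73, 4.95 and 4.57 with YMW. The CAS values lay around the background of 3.91, and both groups were below SBM, where the mean was 6.95. Crct1, Fut2, Prnd, Ptgs2 and Timp2 also missed the threshold, by their p, when the widely spread MC arrays were added to the fit.

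To place each difference on the side of CAS or of YMW, both groups were set against the mean of SBM and SDPP. These comparisons share arrays with each other and with CAS minus YMW, so their values are a description. Against that mean, 36 genes (0.191%) passed the threshold with CAS and 11 (0.0584%) with YMW. Of the 53 genes, 19 passed with CAS alone, 4 with YMW alone, 1 (Cyp1a1) with both and 29 with neither. For 39 the mean of SBM and SDPP lay between CAS and YMW. Choosing genes by a large difference between CAS and YMW itself favours such a position, and the share over all genes was not computed. Some genes higher with CAS stood near SBM and SDPP in the YMW group: Rhob was at 1.13 with CAS and 0.03 with YMW, Mfsd4a at 0.89 and 0.06, Pmepa1 at 0.85 and 0.02, and Mir200b at 0.68 and 0.02. Others had CAS above and YMW below that mean, with Tnfsf13b at 1.14 and -0.32, Sox9 at 0.56 and -0.34 and Ifit1 at 0.34 and -0.62. Sox9 and Ifit1 passed the threshold on neither side. For Ifit1 the unadjusted p-values were 0.304 with CAS and 0.0691 with YMW (limma), and SBM arrays ran from 7.08 to 8.7. Depp1 and Dusp1 instead stood near SBM and SDPP in the CAS group, at 0.03 with CAS and 1.01 with YMW and at -0.01 and 0.60. Plat and Tnfaip2 were split between both sides, at -0.53 and 0.52 and at -0.47 and 0.53.

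**Figure D3:**
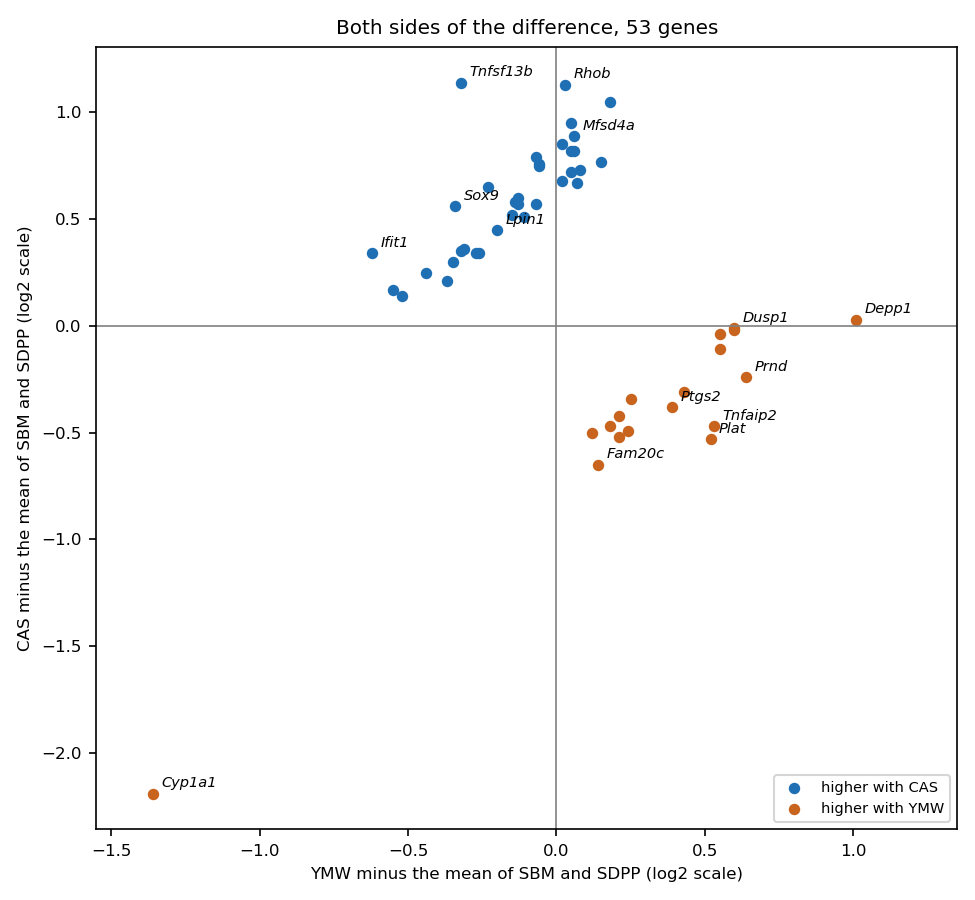
Difference from the mean of SBM and SDPP with YMW (horizontal axis) and with CAS (vertical axis), both on the log2 scale, for the 53 genes past the threshold between CAS and YMW. Among genes higher with CAS, Rhob lies near the vertical axis (0.03 and 1.13) and Ifit1 well to its left (-0.62 and 0.34), while Depp1 lies near the horizontal axis (1.01 and 0.03) and Cyp1a1 is at -1.36 and -2.19; the axes share the SBM and SDPP arrays.

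Groups of metabolic and stress genes had small differences, nearly all under the fold threshold. Of 33 targets of the fatty acid sensor PPAR-alpha and enzymes of fatty acid oxidation, 0 passed the threshold. At an unadjusted p under 0.05, 12 had higher values with YMW (4.67% of all genes) and 0 with CAS (3.11%), and the list had a median of -0.17. Vnn1, a pantetheinase, was at 5.59, 5.60 and 5.90 with CAS and 6.15, 6.42 and 6.17 with YMW (-0.55 ± 0.13). Cpt1a, which admits fatty acids to mitochondria, was at 8.85, 8.89 and 9.24 and at 9.45, 9.48 and 9.43 (-0.46 ± 0.09, adjusted p = 0.0876). The groups overlapped in neither gene. Further members, named after their values were seen, included Angptl4 (-0.49 ± 0.17), Slc25a20 (-0.43 ± 0.17), Plin2 (-0.31 ± 0.10) and Cpt2 (-0.21 ± 0.08). Slc25a20 overlapped, with CAS replicate 3 at 7.92 and YMW arrays from 7.89 to 8.24. The mean over the list overlapped too, at 7.145 on CAS replicate 3 against 7.106 and 7.139 on YMW replicates 2 and 3.

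Among genes of fat synthesis, 1 passed the threshold. Lpin1, a phosphatidate phosphatase of triglyceride synthesis, was at 8.05, 8.25 and 8.48 with CAS and at 7.80, 7.51 and 7.50 with YMW, and passed the threshold at 0.66 ± 0.12 (adjusted p = 0.0563). It was lost without CAS replicate 3. Of the 32 genes of triglyceride synthesis and chylomicron assembly, 5 had an unadjusted p under 0.05 with CAS higher (3.11% of all genes) and 0 with YMW higher (4.67%). Besides Lpin1 these were Srebf1, the regulator of lipid synthesis (0.37 ± 0.09), the desaturases Scd1 (0.34 ± 0.12) and Scd2 (0.34 ± 0.07) and the fatty acid synthase Fasn (0.32 ± 0.09). The list's median was 0.00. Of 22 genes of cholesterol synthesis and uptake, 3 had an unadjusted p under 0.05, all with CAS higher (3.11% of all genes), led by Cyp51 (0.39 ± 0.12), and the median was 0.14.

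Of 35 genes of the oxidant response, which the factor NRF2 and glutathione metabolism define, Cbr3 passed the threshold (0.0956% of all genes with YMW higher) and 9 had an unadjusted p under 0.05, all with YMW higher (4.67% of all genes), and the median was -0.15. Hmox1, the heme oxygenase, was at 8.24, 8.38 and 8.20 with CAS and at 8.56, 9.02 and 8.94 with YMW (-0.57 ± 0.11, adjusted p = 0.0595). Gclc, the enzyme that limits glutathione synthesis, was at 9.92, 10.11 and 9.87 and at 10.28, 10.63 and 10.28 (-0.43 ± 0.10). Nqo1, a common marker of NRF2, differed by -0.21 (95% interval -0.47 to 0.04), and Txnrd1 by -0.13 (-0.28 to 0.02). Of 28 genes of the integrated stress response, which the factor ATF4 drives when amino acids run short, 8 had an unadjusted p under 0.05, all with YMW higher (4.67% of all genes), and the median was -0.13. Slc3a2, the heavy chain of amino acid exchangers, was at 10.54, 10.52 and 10.50 with CAS and 10.86, 10.90 and 10.83 with YMW (-0.35 ± 0.06), and had an adjusted p of 0.0417 at a fold under 1.5. The amino acid exchangers Slc7a11 (-0.44 ± 0.13) and Slc7a5 (-0.25 ± 0.07) and the stress gene Nupr1 (-0.47 ± 0.09) lay on the same side as Slc3a2. Slc7a8, also an amino acid exchanger, went the other way and was higher with CAS by 0.61 ± 0.21 (adjusted p = 0.442). Its values of 6.45, 6.47 and 7.14 against 6.44, 6.02 and 5.78 all but touched. It missed the threshold without CAS replicate 3, YMW replicate 2 or YMW replicate 3 and in the fit of all 15 arrays. Bag3, a cochaperone of the heat shock response, differed by 0.44 ± 0.08 (adjusted p = 0.0482), with CAS higher.

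**Figure D4:**
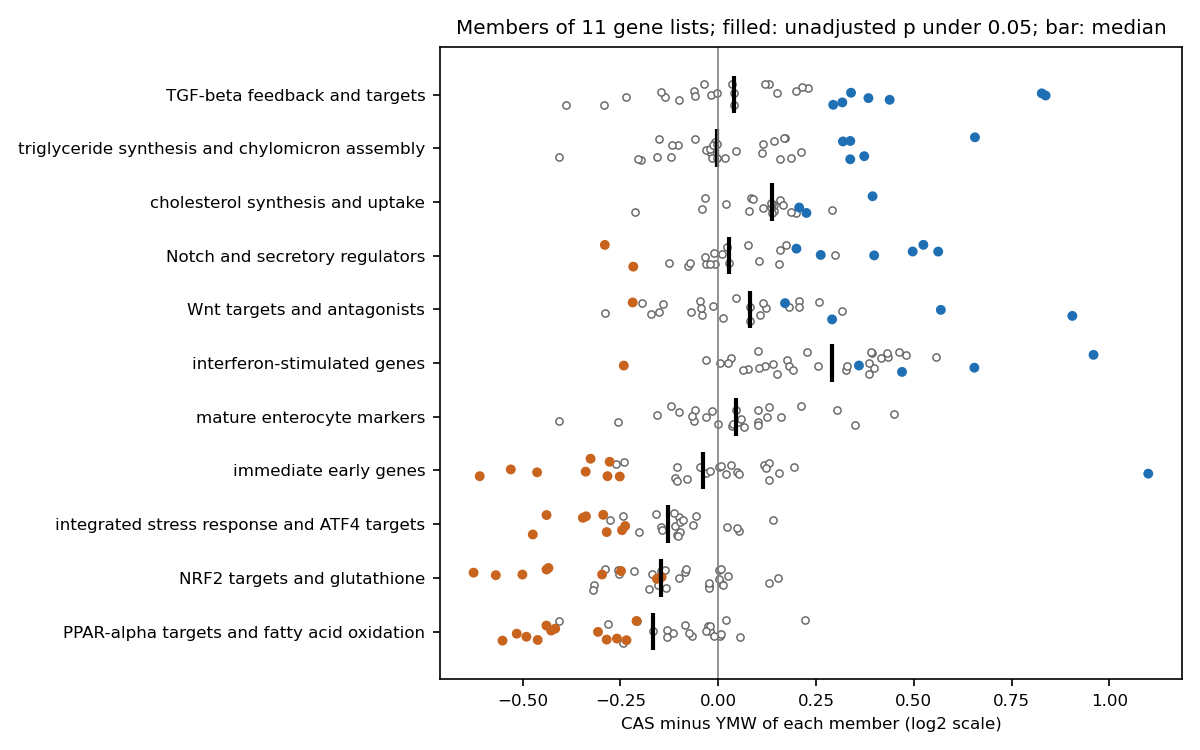
Difference of CAS minus YMW on the log2 scale (horizontal axis) of each measured member of 11 gene lists (vertical axis), with filled points for an unadjusted p under 0.05 and bars for medians. All filled points of the PPAR-alpha, NRF2 and ATF4 lists (12, 9 and 8) lie below 0, those of the TGF-beta list (7) above 0, and none of the mature enterocyte markers is filled.

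Interferon-stimulated genes had the highest median of the 48 lists, 0.29, and the YMW arrays were spread widely in them. Ifit1 was at 8.18, 8.55 and 8.35 with CAS and at 8.20, 6.80 and 7.21 with YMW, so YMW replicate 1 lay within the CAS range. It differed by 0.96 ± 0.36 (adjusted p = 0.514). Cmpk2 overlapped too, at 0.65 ± 0.24 (adjusted p = 0.486). Both lost the threshold without YMW replicate 2, YMW replicate 3 or CAS replicate 2. Of the 34 genes on this list, 4 had an unadjusted p under 0.05 with CAS higher (3.11% of all genes) and 1 with YMW higher (4.67%), and the mean over the list was 6.62, 6.82 and 6.62 with CAS and 6.83, 6.09 and 6.31 with YMW.

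Levels of enterocyte markers differed between arrays of a group more than between CAS and YMW. Mean levels of 27 mature enterocyte markers were 7.86, 8.05 and 8.82 with CAS and 8.72, 8.00 and 7.89 with YMW, so CAS replicate 3 and YMW replicate 1 stood above the other arrays of their groups by more than the groups differed. Of these markers, 0 had an unadjusted p under 0.05, and their median difference was 0.05. Crypt base stem cell markers ran the other way across arrays, at 8.46, 8.41 and 8.20 with CAS and 8.24, 8.38 and 8.41 with YMW. Goblet, Paneth, enteroendocrine and tuft cell markers had median differences of -0.03, 0.01, 0.06 and 0.05, and none of them passed the threshold. Leaving out CAS replicate 3 or YMW replicate 1 raised the count of genes past the threshold from 53 to 92 or 86. The part of this difference between arrays in the results above was not tested. Whichever 1 of the 12 arrays was left out, 26 of the 53 genes passed the threshold.

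**Figure D5:**
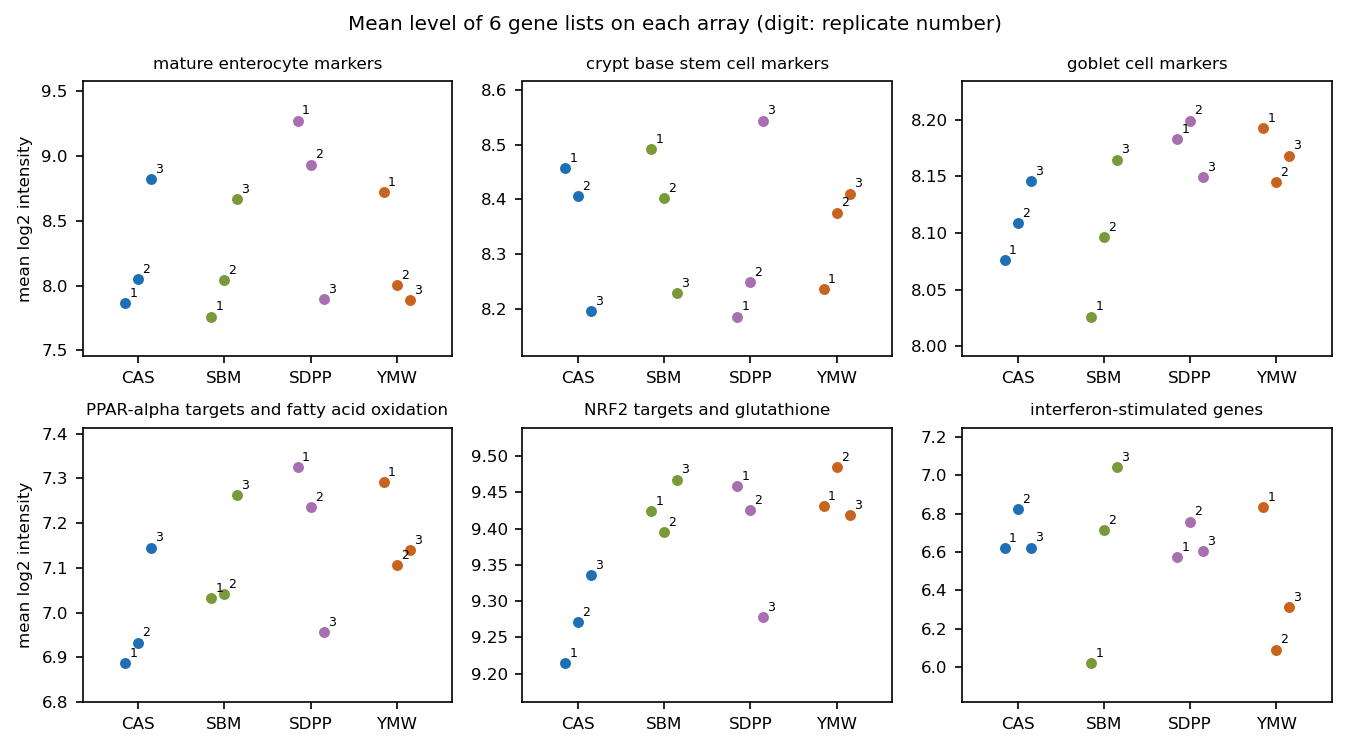
Mean log2 intensity (vertical axes) of 6 gene lists on each of the 3 arrays (points with replicate numbers) of CAS, SBM, SDPP and YMW (horizontal axes). Mature enterocyte markers set CAS replicate 3 (8.82) and YMW replicate 1 (8.72) apart from the other arrays of their groups, and the NRF2 list is lower on all CAS arrays than on all YMW arrays.

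The count of 53 lay between those of other pairs of protein sources. In the same fit, 58 genes (0.308%) passed the threshold between CAS and SBM, 49 (0.26%) between CAS and SDPP, 31 (0.165%) between SBM and YMW, 24 (0.128%) between SDPP and YMW and 21 (0.112%) between SBM and SDPP. The pairs share arrays, and the difference between their counts was not tested. Against the MC, with all 15 arrays in the fit, 725 genes (3.85%) passed with CAS and 728 (3.87%) with YMW, counts that share the MC arrays.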

How the data were processed

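Signals of the 15 arrays were deposited as intensity values on a linear scale, which the authors had made by RMA (background correction, quantile normalization and summary of probes), per the labels and methods; its version is not given in the sources used here. They ranged from 3.02 to 10739.1, with array medians from 21.7 to 24.1. Log2 was taken first. Of 35556 probe sets, 21218 carried 1 symbol, and 18820 genes were each represented by their brightest probe set. Background was set from 1157 genes of smell receptors, at their 95th percentile, which 12880 genes exceeded. The number of arrays limits the precision.

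Groups were taken from the labels. Differences were fitted with limma 3.58.1 in R 4.3.3 (lmFit, eBayes with an intensity trend, two-sided) on the 12 arrays of the 4 protein sources, with Benjamini-Hochberg adjustment over all genes. MC arrays, which spread more, were left out and entered only the comparisons with MC. The fit was tested on simulated data. The text names up to 15 genes in each direction with the largest difference among those past the threshold, above background and without overlap, up to 4 members of each of 48 gene lists past the threshold (or 2 with the smallest p), and 10 genes known from earlier results. The members and lists were chosen with earlier results of these data known. Other genes are said to be named after their values were seen. Alternatives were other sets of arrays, variance models, array weights, normalizations, filters, thresholds and the omission of each array. Promoter and miRNA sequences came from RefSeq (GRCm38.p6). Assays other than the arrays were not analysed here.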

Additional observations from a re-analysis of the deposited data

How the results depend on the processing

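No gene past the threshold changed direction in any alternative. Over single genes and list medians, 2587 values kept the gene's call or stayed within the spread between arrays of the list. A further 66 gene values fell short of the threshold, 64 newly passed it, and 31 list medians moved by more than that spread. A kept call does not mean a kept sign for genes that were not past the threshold. These counts include settings that changed only the threshold on the fold change. The count of 53 genes past the threshold between CAS and YMW stayed within 1.5 times under the other fits, and ran from 52 to 92 with 1 array left out; it was 1463 with no threshold on the fold change and 0 with a log2 fold change above 1.5. Without CAS replicate 3, YMW replicate 1 and YMW replicate 3 it was 92, 86 and 80. The 29 genes at an adjusted p under 0.05 depended more on the fit: 7 with all 15 arrays, 7 with the 6 arrays of CAS and YMW alone, 17 with 1 prior variance, 70 with array weights and from 3 to 32 with 1 array left out (3, 6, 4 and 7 without CAS replicate 2, CAS replicate 1, YMW replicate 2 and YMW replicate 3, and 12 and 14 without SBM replicate 2 and SDPP replicate 2). CAS against the mean of SBM and SDPP gave 31 to 81 genes with 1 array left out in place of 36 (81 without CAS replicate 3, 65 without SDPP replicate 3), 1210 with no fold threshold and 1 above a log2 fold change of 1.5. YMW against that mean gave 11 to 40 in place of 11 (40, 39 and 28 without YMW replicate 1, SDPP replicate 3 and YMW replicate 3, and 17 without SBM replicate 1 or SBM replicate 3), 21 with array weights, 1176 with no fold threshold and 0 above a log2 fold change of 1.5. Arrays centred on their median gave 42 genes higher with CAS and 16 higher with YMW, against 35 and 18.

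No pairing of the arrays by replicate number was seen in the correlation of their deviations from group means. Its median was -0.156 over 18 pairs of the same number and 0.104 over other pairs. Pairs of the same number ran from -0.640 to 0.474, and 1 of 12 arrays correlated best with its own number. Deviations within such small groups depend on each other through the group mean, so these correlations cannot decide whether a number marks a mouse. With the replicate number as a block, 54 genes passed the threshold and 11 had an adjusted p under 0.05, and the comparisons with the mean of SBM and SDPP gave 36 genes for CAS and 11 for YMW. Signal near background limits what can be seen: 4 of the 53 genes were not above it.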

Other observations

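Some gene groups not described above had small differences between CAS and YMW, all under the fold threshold apart from Sox9. The genes named here were picked by their values. Lists share members, so their counts are not independent. Sox9 and Rnf43 are on the Wnt and stem cell lists, and Btg2 is on the immediate early and p53 lists. Sesn2 is on the ATF4 and p53 lists, and Slc7a11 on the NRF2 and ATF4 lists. Over all genes, an unadjusted p under 0.05 was found in 3.11% with CAS higher and 4.67% with YMW higher, the shares beside which the counts below stand. Among 25 Notch and secretory regulators, 6 had an unadjusted p under 0.05 with CAS higher, led by Sox4 (0.56 ± 0.19), the glycosyltransferase Lfng (0.52 ± 0.15) and the ligand Dll4 (0.50 ± 0.15), and 2 with YMW higher. Among 27 Wnt targets and antagonists, 4 had an unadjusted p under 0.05 with CAS higher, Sox9 and the crypt receptor Ephb3 (0.57 ± 0.18) with the largest values, and 1 with YMW higher. Of 31 genes of DNA replication and S phase, 4 had an unadjusted p under 0.05 with YMW higher, among them Tk1 (-0.37 ± 0.10), and 0 with CAS higher. Of 20 p53 targets, 6 had an unadjusted p under 0.05, all with YMW higher, led by Pmaip1 (-0.39 ± 0.11).

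In the handling of vitamin A, the retinal reductase Dhrs3 (-0.51 ± 0.10) and the alcohol dehydrogenase Adh7 (-0.47 ± 0.16) had higher values with YMW, and Aldh1a3, which makes retinoic acid, had 0.40 ± 0.14 with CAS higher. The metallothioneins Mt2 (-0.46 ± 0.08) and Mt1 (-0.16 ± 0.04) and the transferrin receptor Tfrc (-0.27 ± 0.09) had higher values with YMW. Nfkbia, the inhibitor that NF-kappaB induces, differed by -0.45 ± 0.09, with 9.40, 9.20 and 9.40 on CAS and 9.86, 9.75 and 9.74 on YMW arrays. Of 14 chitinases and chitin-related genes, of interest because mealworm holds chitin, 0 passed the threshold. The chitin receptor Fibcd1 was the only 1 with an unadjusted p under 0.05 (-0.40 ± 0.12, YMW higher, 4.67% of all genes). Its CAS values of 3.85, 3.90 and 3.83 lay just below the background of 3.91, and its YMW values were 4.25, 4.22 and 4.33. MC arrays, without mealworm, were at 4.17, 3.94 and 4.20, and SBM and SDPP arrays ran from 3.72 to 4.25. In 8 genes the adjusted p was under 0.05 at a fold under 1.5. Bdh1, of ketone body metabolism, was at 0.54 ± 0.07 (adjusted p = 0.00914) and Rab43 at 0.45 ± 0.08, with CAS higher as in Bag3, and Slc16a6 (-0.54 ± 0.09), Tnfrsf21 (-0.53 ± 0.09), Ugt2b35 (-0.53 ± 0.09) and Akr1b8 (-0.42 ± 0.06) had YMW higher, as had Slc3a2.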
